A study of Mus musculus with 12 samples.

Results

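Complement is a cascade of secreted proteins that tags cells, debris and synapses. The genes described here are its component C4b and 7 others: C4a, C1qa, C1qb, C1qc, C3, C3ar1 and Serping1. They were selected by gene symbol, and all 8 were found among the 34193 rows of the deposited table. C4b headed the selection because its reads were lower in the knockout cortex. Total RNA had been sequenced from the cerebral cortex of mice aged 8 weeks. The conditional knockout (cKO) group had the genotype Nsd1 flx/flx with Nestin-cre +/-, and the control group had Nsd1 flx/flx with Nestin-cre -/-, with 6 libraries in each. Both groups thus carry the floxed alleles, and no group carries Cre without them. NSD1 methylates lysine 36 of histone H3. Nestin-Cre acts in neural progenitors, whose descendants include neurons, astrocytes and oligodendrocytes, whereas microglia, the resident macrophages of the brain, arise outside that lineage.

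In the classical pathway, C1q binds a target and activates the proteases C1r and C1s, which cleave C4 and C2. Their fragments form an enzyme that cleaves C3, and C3 fragments mark the target and signal to receptors. In the brain, C1q comes mainly from microglia, C4b from astrocytes and oligodendrocytes, and the pathway is known for its part in the removal of synapses. C4b and the protease inhibitor gene Serpina3n are known as a pair of genes that rise in reactive and ageing glia.

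C4a is the near copy of C4b on chromosome 17 and is annotated as a transcribed pseudogene in RefSeq assembly GRCm38. Over 5367 aligned bases of the GENCODE transcripts the pair had 96.1% identity and an identical run of up to 433 bases. Windows of 50 bases from the C4b transcript were found unaltered in C4a in 35.2% of cases, and windows of 100 bases in 16.5%. The stretches printed here are the 60 coding bases of C4b with the most differences and the matching bases of C4a, since reads from this stretch can be told apart while reads from shared stretches cannot. Capitals mark the 13 differing bases.
C4b (transcript bases 2761 to 2820): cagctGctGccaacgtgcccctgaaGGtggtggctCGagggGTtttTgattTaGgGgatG
C4a (transcript bases 2755 to 2814): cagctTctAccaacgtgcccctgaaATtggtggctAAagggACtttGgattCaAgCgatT

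The libraries held 14.6 to 27.0 M reads assigned to genes in the cKO and 10.5 to 21.1 M in the controls. Values are reads normalised between libraries by the authors, in which 3 reads stand for 1.98 to 5.64 depending on the library. Y-linked reads separated libraries 1 to 3 from libraries 4 to 6 of each genotype, and this split, called the Y set below, did not follow the labelled sexes of the same numbers. Mitochondrial ribosomal RNA took 14.2% and 11.5% of the reads in control libraries 4 and 5, against 1.46% to 6.00% in the other 10 libraries. Nsd1, the targeted gene, averaged 3251 ± 299 normalised reads in the cKO and 4235 ± 849.9 in the controls (SD, n = 6 each), with overlapping ranges and a log2 difference of -0.36 that limma did not call at an adjusted p under 0.05. With a transcript length trend removed, an alternative chosen after seeing the data, it was -0.50 and called (limma adjusted p = 0.00372). The labels do not name the exons that Cre removes, and reads from exons outside a deletion remain in a count over the whole gene. The part of such reads in the Nsd1 values was not tested.

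C4b, the component that becomes part of the classical C3-cleaving enzyme, had 129, 122, 171, 123, 166 and 120.3 normalised reads in cKO libraries 1 to 6, against 209, 174, 208, 293, 228 and 198 in control libraries 1 to 6. Every cKO library was below every control library, although the highest cKO value, 171, and the lowest control value, 174, were close. Behind these values stood 104 to 195 reads per cKO library and 156 to 254 per control library. The means were 139 ± 23.4 in the cKO and 218 ± 40.6 in the controls (SD, n = 6 each), a ratio of 0.635. On the log2(value + 1) scale the difference was -0.65 (SE 0.13, 95% interval -0.93 to -0.37).

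This difference is what brought C4b into view, so it is given as a description. It was the 9th by p-value of the 10 genes called lower among the 14397 tested (limma, adjusted p = 0.0219), or 0.0695% of them. The next gene inside the threshold was Cyb5r1 (adjusted p = 0.036) and the first outside it Krt80 (0.0612). Groups without overlap were found for 1.01% of tested genes, with each cKO library lower for 0.194% and each higher for 0.813%. Of the 6 of these 8 genes that were tested, 5 had a log2 difference below 0, as did 50.1% of all tested genes. In the authors' deposited table its log2 fold change is -0.64 (SE 0.14) at an adjusted p of 0.00133.

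With C4a and C4b summed into 1 row, the log2 difference was -0.62 (limma adjusted p = 0.0229). The call was sensitive to single libraries: it ended without any of 8 of the 12 libraries (control 1, 3, 4 or 5, or cKO 1, 2, 4 or 6). Over all 12 omissions the log2 difference was -0.73 to -0.56, with a limma adjusted p of up to 0.0762. Without control libraries 4 and 5, which had the 2 highest C4b values, it was -0.51 (limma adjusted p = 0.225).

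C4a itself was close to the limit of detection. It had 3 to 11 reads per cKO library and 2 to 10 per control library, which is 6.43 ± 2.70 normalised reads in the cKO and 5.95 ± 1.67 in the controls (SD, n = 6 each). The ranges overlapped, at 3.41 to 10.3 and 3.76 to 8.23. C4a lay below the filter of a mean of 10 normalised reads and was not tested.

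**Figure D1:**
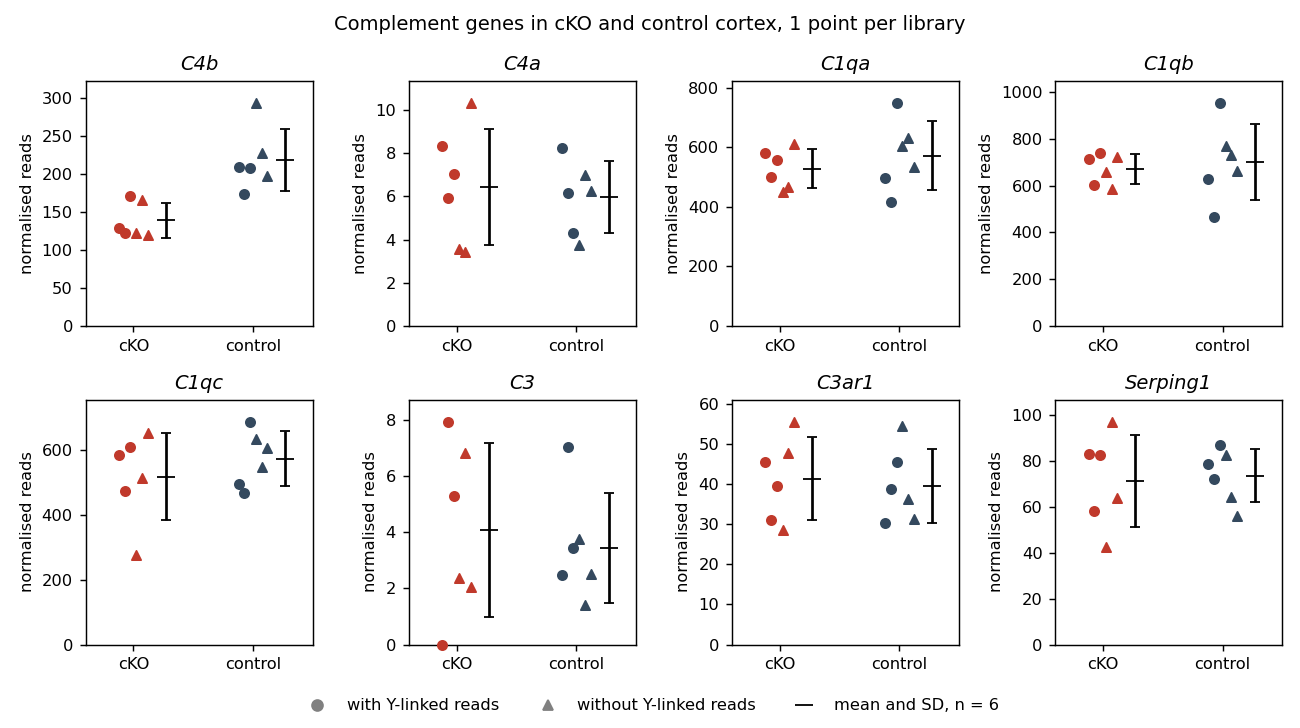
Normalised reads (vertical axes, from 0) of the 8 genes in each of the 12 libraries, cKO in red and control in dark blue, with circles for libraries with and triangles for libraries without Y-linked reads; bars give mean and SD (n = 6 each). For C4b the cKO points, up to 171, all lie below the control points, from 174, while the ranges of the other 7 genes overlap.

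The 3 chains of C1q, the recognition molecule that starts the classical pathway, had overlapping ranges in the cKO and the controls. C1qa stood at 451, 529 and 609 normalised reads in the cKO (lowest, median and highest), against 416, 569 and 747 in the controls. C1qb stood at 585, 686 and 739 in the cKO, against 467, 695 and 951 in the controls. C1qc stood at 275, 549 and 652 in the cKO, against 468, 577 and 687 in the controls. In C1qc a single cKO library, number 4 at 275, fell below the control range, whereas the same library had 451 for C1qa and 659.5 for C1qb, both inside that gene's control range.

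Log2 differences were -0.10 for C1qa (95% interval -0.37 to 0.17), -0.04 for C1qb (-0.33 to 0.25) and -0.19 for C1qc (-0.55 to 0.18). A change of either sign as large as the C4b estimate, -0.65, lies outside these intervals. However, the 95% interval of C4b itself, -0.93 to -0.37, overlaps that of C1qc. Whether the difference of C4b departs from those of the C1q chains was not tested. The transcripts of the 3 chains share no window of 50 bases, so reads of that length are not divided between them.

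C3, the central component whose cleavage all routes of activation share, was near the limit of detection in this tissue. It had 0, 12, 6, 2, 8 and 2 reads in cKO libraries 1 to 6, against 3, 8, 4, 2, 1 and 2 in control libraries 1 to 6. The 0 in cKO library 1 allows a level of up to 2.27 normalised reads. Its means were 4.07 ± 3.08 normalised reads in the cKO and 3.44 ± 1.95 in the controls (SD, n = 6 each), and it was not tested.

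C3ar1, the receptor for the C3 fragment C3a, averaged 41.3 ± 10.3 normalised reads in the cKO and 39.5 ± 9.18 in the controls (SD, n = 6 each). The ranges nearly coincided, at 28.5 to 55.5 in the cKO and 30.4 to 54.5 in the controls. Its log2 difference was 0.06 (95% interval -0.36 to 0.47).

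Serping1 encodes the C1 inhibitor, which blocks the proteases C1r and C1s. It had 83.3, 58.1, 82.7, 42.7, 97.2 and 63.8 normalised reads in cKO libraries 1 to 6, against 79.0, 72.2, 86.9, 82.7, 64.3 and 56.3 in control libraries 1 to 6. The cKO libraries spread more widely and held both the lowest and the highest value. The log2 difference was -0.08 (95% interval -0.46 to 0.30).

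The order of levels was read per kilobase of the longest GENCODE transcript, as a description. C1qb was highest at 616 ± 59.5 normalised reads per kb in the cKO and 644 ± 148 in the controls (SD, n = 6 each). C1qa followed at 507 ± 62.0 in the cKO and 549 ± 111 in the controls, and C1qc at 430.4 ± 112 in the cKO and 477 ± 70.2 in the controls. Across libraries the ranges of neighbouring chains overlapped, in the controls too. The cKO libraries had 538 to 679 for C1qb, 433 to 586 for C1qa and 229 to 542 for C1qc. Within each library, however, C1qb lay above C1qa and C1qa above C1qc. This order was not tested.

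Serping1 had 40.3 ± 11.3 normalised reads per kb in the cKO and 41.6 ± 6.56 in the controls. C4b had 25.8 ± 4.34 in the cKO and 40.6 ± 7.54 in the controls, and the ranges of Serping1 and C4b overlapped in both genotypes (24.2 to 55.0 against 22.4 to 31.7 in the cKO). Within each cKO library Serping1 lay above C4b, while control libraries went both ways. The levels of C4b and C4a were divided by full transcript length, although how reads shared by the 2 were assigned is not known. C3ar1, at 9.59 ± 2.40 in the cKO and 9.17 ± 2.13 in the controls, lay below every library of C4b and above every library of C4a. C4a, at 1.20 ± 0.503 in the cKO and 1.11 ± 0.311 in the controls, and C3, at 0.793 ± 0.599 in the cKO and 0.669 ± 0.380 in the controls, did not differ beyond their spread.

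**Figure D2:**
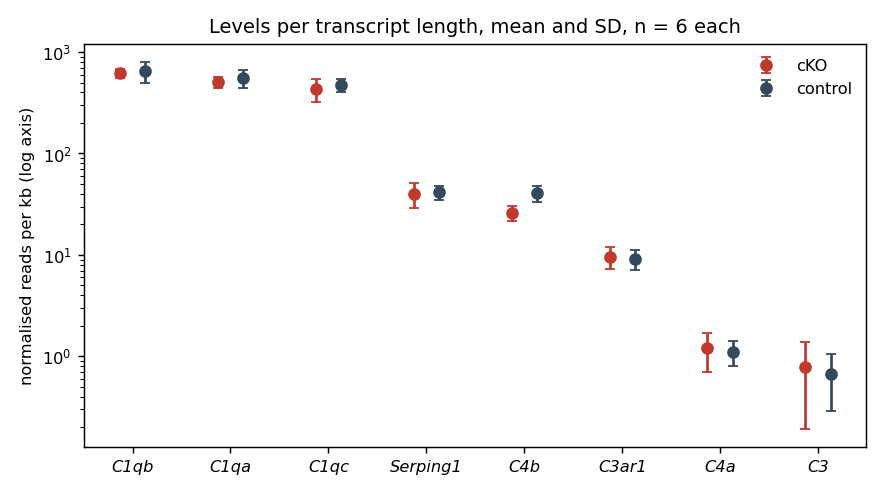
Normalised reads per kb of transcript (log axis) for the 8 genes in descending order, cKO in red left of control in dark blue, mean and SD (n = 6 each). The C1q chains lie between 430.4 and 644, while C4a and C3 lie at or below 1.20; C4b has 25.8 in the cKO and 40.6 in the controls.

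The split by Y-linked reads is independent of the genotype comparison, as both sets hold 3 libraries of each genotype, and was tested in the same model. The sets also differ in column number and in depth, with 18.8 to 27.0 M reads where Y-linked reads were present and 10.5 to 20.4 M where absent. Control libraries 4 and 5, high in mitochondrial ribosomal RNA, both lack Y-linked reads. A difference between the sets cannot be told apart from these properties. C4a, known as sex-limited protein in mouse, is under androgen control in the liver of some strains, which makes the split of interest for this family. In the cKO, C4b had 140.4 ± 26.3 normalised reads where Y-linked reads were present and 137 ± 25.7 where they were absent (SD, n = 3 each). The corresponding control values were 197 ± 19.8 and 239.6 ± 48.7 (SD, n = 3 each). Its log2 difference between the sets was -0.11 (SE 0.13, limma adjusted p = 0.743). Of the 6 genes that passed the filter, 0 were called between the sets by limma, edgeR or DESeq2, and 0 had an unadjusted p under 0.05 with limma, with 0.0764% of all tested genes called. The log2 differences ran from -0.11 for C4b and C3ar1 to 0.22 for Serping1 (95% interval -0.16 to 0.59).

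The genotype difference of C4b on the log2 scale was -0.50 in the set with Y-linked reads and -0.80 in the other set. The difference between these values, 0.30 (SE 0.26, 95% interval -0.25 to 0.86), was not called (limma adjusted p = 0.688). For the C1q chains, C3ar1 and Serping1 it ran from -0.08 to 0.42, with limma adjusted p of at least 0.668. Limma called 0 of all tested genes for this interaction (1263, or 8.77%, at an unadjusted p under 0.05), edgeR 0 and DESeq2 3.

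Variation between libraries of the same kind was compared next, after values had been centred on the mean of each genotype-by-set group, which removes the genotype difference. Across 12 libraries, the mean log2 value of the C1q chains followed that of 20 microglia markers (Pearson's r = 0.95, Spearman's rho = 0.92, exact permutation within the 4 groups, two-sided p = 0.000772 for each, the smallest that the 1296 arrangements can give, and 0.00425 adjusted over 11 relations). It was 0.99 in the libraries with and 0.90 in those without Y-linked reads, and 0.90 without the 2 libraries farthest from the median. The C1q mean was also related to the mean of ribosomal protein genes, a relation chosen after the values were seen (r = 0.74, rho = 0.79, exact permutation p = 0.00231 and 0.00154, adjusted over 12 relations 0.00924 and 0.00616). That relation gave 0.98 in the set with Y-linked reads, 0.44 in the other set and 0.55 without the 2 farthest libraries. The part of ribosomal protein levels in the variation of C1q was not tested.

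Among the chains, C1qa and C1qb varied together (r = 0.93, rho = 0.83, exact permutation p = 0.00617 and 0.0154, adjusted p = 0.0226 and 0.0424). This r was 0.77 without the 2 farthest libraries and 0.98 and 0.77 in the sets with and without Y-linked reads. C1qb and C1qc gave r = 0.47 (rho = 0.68, exact permutation p = 0.161 and 0.0694, adjusted p = 0.221 and 0.127), with 0.93 in the libraries with and 0.16 in those without Y-linked reads, where cKO library 4 has its low C1qc value. Without the 2 farthest libraries r was 0.31. C1qa and C1qc gave r = 0.67 and rho = 0.76 (exact permutation p = 0.0309 and 0.0247, adjusted p = 0.0623 and 0.0543), and 0.68 without the 2 farthest libraries.

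Serping1 varied with 16 markers of vascular and meningeal cells (r = 0.92, rho = 0.96, exact permutation p = 0.000772 for each, adjusted p = 0.00425), with 0.95 and 0.92 in the sets with and without Y-linked reads and 0.90 without the 2 farthest libraries. C3ar1 and the microglia markers gave r = 0.71 and rho = 0.79 (exact permutation p = 0.0231 and 0.00926, adjusted p = 0.0623 and 0.034), with 0.52 and 0.90 in the sets with and without Y-linked reads and 0.62 without the 2 farthest libraries. C3, near the detection limit, gave r = -0.07 and rho = 0 with the same markers (exact permutation p = 0.826 and 1, adjusted p = 0.826 and 1).

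C4b was compared with astrocyte and oligodendrocyte markers, and neither relation passed the adjusted threshold. Its relation to 16 astrocyte markers was r = 0.69 and rho = 0.60 (exact permutation p = 0.034 and 0.0988, adjusted p = 0.0623 and 0.155), with 0.77 and 0.67 in the sets with and without Y-linked reads and 0.73 without the 2 farthest libraries. For 12 oligodendrocyte markers it was r = 0.53 and rho = 0.41 (exact permutation p = 0.117 and 0.225, adjusted p = 0.184 and 0.309), with 0.94 and -0.09 in the 2 sets. This r was 0.70 without the 2 farthest libraries. C4b and C4a gave r = -0.44 and rho = -0.38 (exact permutation p = 0.265 and 0.296, adjusted p = 0.324 and 0.326). That r was 0.04 and -0.64 in the sets with and without Y-linked reads, and -0.14 without the 2 farthest libraries. The 5 genes whose centred values were most like those of C4b over the 12 libraries, out of 12298 with a mean of at least 50, were Reck, Ehmt1, St5, BC088983 and Cyp7b1, with Pearson's r of 0.96, 0.92, 0.89, 0.88 and 0.88. None of these 5 was called between genotypes by limma, with log2 differences of -0.08, -0.08, 0.03, -0.22 and 0.34. For Cyp7b1 (limma adjusted p = 0.12) each cKO library, at 198 to 229, lay above each control, at 147 to 194. Such an order was found for 0.813% of tested genes. The 5 genes most like the C1q mean were Fam195b, Gtpbp5, Stard10, A2ld1 and the microglial receptor gene Trem2, with r of 0.96 to 0.99. Among these, Trem2 alone is in the microglia marker list. Their transcripts have 1076 to 1723 bases, and those of the C1q chains 1040 to 1203. The part of transcript length in these relations was not tested.

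**Figure D3:**
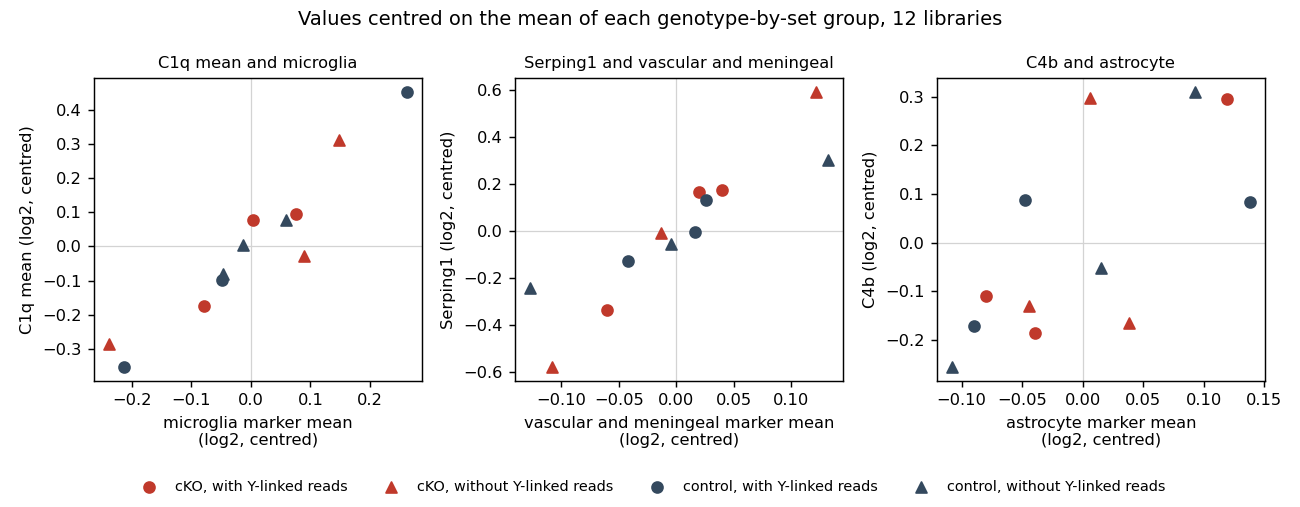
Log2 values centred on the mean of each genotype-by-set group in 12 libraries, for the C1q mean against the microglia marker mean (r = 0.95), Serping1 against the vascular and meningeal marker mean (r = 0.92) and C4b against the astrocyte marker mean (r = 0.69). Colours give the genotype and symbols the Y set; the points of the C4b panel scatter most.

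The other genes of the complement system were compared between cKO and control cortex by role. Cd59a and Srpx2 rose in the cKO, and C4b was the gene called lower. Of 73 listed names, 66 were in the table and 38 passed the filter, 6 of them among the 8 genes described above. Of the other 32, limma called 2 higher and 0 lower, against 0.764% called higher and 0.0695% called lower over all tested genes. At an unadjusted p under 0.05, 4 were higher and 0 lower, against 4.61% and 5.13% of all tested genes. EdgeR and DESeq2 called 2 of the 38 higher and 1, C4b, lower. The median log2 difference of the 38 was 0.05, beside -0.00069 for all tested genes.

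Cd59a encodes the membrane protein that stops assembly of the membrane attack complex. It had 157, 147, 157, 199, 146 and 175 normalised reads in cKO libraries 1 to 6, against 82.3, 74.0, 107, 124, 144 and 91.4 in control libraries 1 to 6. Every cKO library was above every control library, by a narrow margin of 146 over 144. The log2 difference was 0.68 (SE 0.13, limma adjusted p = 0.0174). Its limma call ended without cKO library 1, 2 or 3 or control library 1 or 6 (adjusted p up to 0.0597). Windows of 50 bases from Cd59a occur in its copy Cd59b in 3.98% of cases.

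Srpx2 encodes a secreted sushi-domain protein that binds C1q and was described in mouse as a neuronal inhibitor of complement. It had 39.4, 39.6, 30.8, 43.9, 44.4 and 40.1 normalised reads in cKO libraries 1 to 6, against 21.4, 22.9, 19.8, 9.39, 12.6 and 11.3 in control libraries 1 to 6. All cKO libraries lay above all control libraries. The log2 difference was 1.30 (SE 0.21, limma adjusted p = 0.00367) and kept its call in each omission of a single library (adjusted p up to 0.0155). Among control libraries, those without Y-linked reads were the lowest, at 9.39 to 12.6, while the log2 differences were 0.74 with and 1.86 without Y-linked reads, a difference that was not called over all genes (limma adjusted p = 0.562). These low control values rest on 5, 9 and 9 reads in control libraries 4 to 6, against 35 to 60 reads per cKO library.

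Among the 5 tested initiation genes other than C1q, none was called by limma, and 2 had an unadjusted p under 0.05. Colec11, a soluble lectin of the lectin pathway, had the largest log2 difference at 0.69 (limma adjusted p = 0.536). C1ra and C1rb, copies of the gene for the protease C1r, had 0.53 and 0.54 (limma adjusted p = 0.502 and 0.515), and 48.0% of the 50-base windows of C1ra occur in C1rb. Masp1, a protease of the lectin pathway, had 0.20 (limma adjusted p = 0.512).

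Apart from C4b, the tested genes of the C3-cleaving enzymes were C2, which supplies the protease of the classical enzyme, and Cfp, the stabiliser properdin. C2 averaged 28.6 ± 11.5 normalised reads in the cKO and 32.2 ± 8.21 in the controls (SD, n = 6 each), a log2 difference of -0.23 (limma adjusted p = 0.734), and Cfp had 0.07 (0.933). Cfb and Cfd, of the alternative pathway, were below the filter, and Cfd was at 0 in all 12 libraries. Of the terminal components C8g alone passed the filter, with a log2 difference of -0.33 (limma adjusted p = 0.672).

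Of 6 tested receptor genes 0 were called by limma, and 0 had an unadjusted p under 0.05. Itgam and Itgb2, the chains of the C3 fragment receptor CR3, had log2 differences of 0.07 and 0.15, Cd93 0.13 and Lair1 -0.17. Among regulators, Clu, encoding clusterin, averaged 11269.8 ± 906 normalised reads in the cKO and 11596 ± 1365 in the controls (SD, n = 6 each). Vtn, encoding vitronectin, had a log2 difference of -0.16 (limma adjusted p = 0.516) and Cd46 0.43 (0.701).

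The 11 tested neuronal complement-control and pentraxin genes had a median log2 difference of 0.12, and Srpx2 alone was called between genotypes. Nptx1 and Nptxr, a pentraxin and a pentraxin receptor of synapses, had 0.23 and 0.12 (limma adjusted p = 0.544 and 0.664). Nptx2, a pentraxin induced by neuronal activity, was called between the Y sets. It had 1216 to 1276 normalised reads in cKO libraries with Y-linked reads and 743 to 905 in those without. The control libraries had 1152 to 1458 with and 517 to 749 without Y-linked reads. The log2 difference was 0.85 (SE 0.11, limma adjusted p = 0.00292), and its ranges did not overlap. Column number and depth differ between the Y sets too and cannot be told apart from the Y-linked reads.

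**Figure D4:**
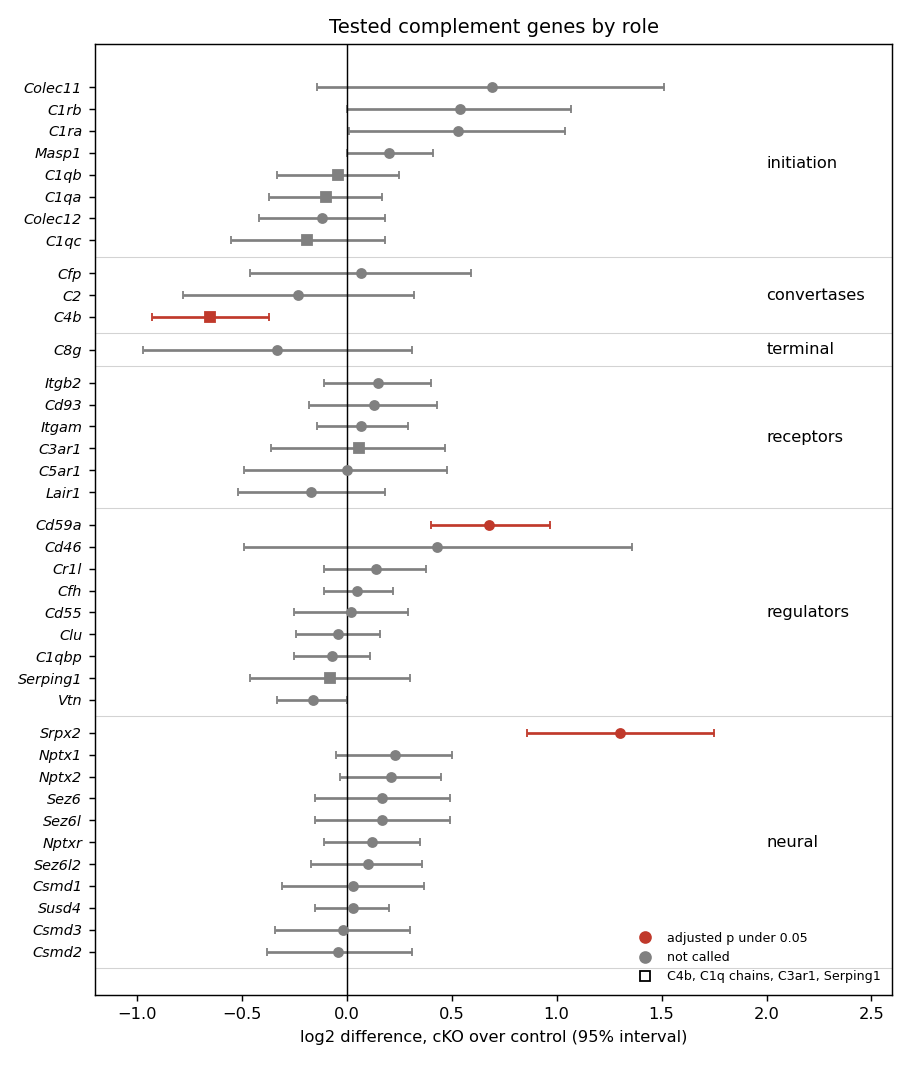
Log2 difference, cKO over control, with 95% interval for 38 tested complement genes by role; red marks a limma adjusted p under 0.05, and squares mark C4b, the C1q chains, C3ar1 and Serping1. C4b, at -0.65, lies below 0 and Cd59a, at 0.68, and Srpx2, at 1.30, above it.

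C4b was then set beside its neighbours and beside markers of cell types. Of the RefSeq neighbours of C4b and C4a, 5 passed the filter, and none was called by limma. The genes closest to C4b were not among these. Cyp21a2-ps, Stk19-ps1, Tnxa and Cyp21a1 had 0 reads in every library, and Gm24389 and Skiv2l-ps1 had no values. Tnxb and Atf6b on the side of C4b each had a log2 difference of 0.08, and Stk19, Dom3z and Skiv2l on the side of C4a had -0.11, -0.01 and 0.07. Fewer cells of a type and less RNA per cell cannot be told apart in these bulk samples.

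Serpina3n, which often rises together with C4b in reactive glia, moved the opposite way. It had 206 to 339 normalised reads in the cKO and 83.9 to 153 in the controls, a log2 difference of 1.20 (SE 0.13, limma adjusted p = 9.32e-05) with each cKO library above each control. Windows of 50 bases from Serpina3n occur in other Serpina3 genes in 6.90% of cases. In centred values C4b and Serpina3n gave r = -0.36 and rho = -0.45 (exact permutation p = 0.38 and 0.275, adjusted p = 0.418 and 0.326). The other 10 tested genes of the reactive glia list were not called, and the median of the 11 was 0.01.

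The median log2 difference was -0.03 for 16 astrocyte markers, of which Aqp4, the water channel of astrocyte endfeet, was called higher at 0.53 (limma adjusted p = 0.00973). It was -0.04 for 12 oligodendrocyte, -0.05 for 20 microglia, -0.03 for 7 border macrophage and -0.02 for 16 vascular and meningeal markers, with 0 called by limma in these 4 lists (3 at an unadjusted p under 0.05 in all). Of the 12 oligodendrocyte markers 8 had a log2 difference below 0 and 4 above it. The lowest was Klk6 at -0.96, with 9.26 to 13.9 normalised reads in the cKO and 16.3 to 45.2 in the controls. The summed level of the microglia markers was 8607 to 10328 normalised reads in the cKO and 8379 to 10357 in the controls, and that of the astrocyte markers 142565 to 182922 in the cKO and 133242 to 208289 in the controls.

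Among blood markers, 0 of 5 tested were called by limma, and all 5 had a log2 difference below 0, with a median of -0.69. Of these, 4, the globin genes, were lower at an unadjusted p under 0.05, as were 5.13% of all tested genes. Their summed level with the 7 members below the filter was 866 to 1755 normalised reads in the cKO and 1024 to 3597 in the controls, so the ranges overlapped. Markers of lymphocytes were near the detection limit, with means in the cKO of 1.36 normalised reads for Cd79a, 4.18 for Cd79b, 0.542 for Cd3e and 5.76 for Ly6d. The control means were 2.75 for Cd79a, 4.17 for Cd79b, 0.561 for Cd3e and 3.84 for Ly6d. The part of blood RNA in the C4b difference was not tested. Neuron markers, which mark the labelled tissue, summed to 184119 to 197581 normalised reads in the cKO and 186314 to 197827 in the controls.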

How the data were processed

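Per the labels' protocols, 250 ng of total RNA was depleted of ribosomal RNA and made into directional libraries. Build mm9 and the tools STAR, Bowtie, bedtools and Trim Galore are named in the submitters' processing notes, with no version. Strand use in counting, how reads shared by near copies were assigned and the read length are not given in the sources used here. Per the file headers, the authors deposited counts normalised with DESeq2, a signal in units of scaled reads, with 1 column per library. All values were whole multiples of 1 step per library (100% within 0.01 reads), so whole reads could be recovered. The deposited table also holds the authors' log2 fold changes with a standard error and a score (Wald statistic) per gene, as well as raw and adjusted p-values.

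Limma with an intensity trend was fitted to log2(value + 1) for the 14397 genes that averaged 10 or more normalised reads, with terms for genotype and for the presence of Y-linked reads (4 genes summed above 100). The threshold for a call was a Benjamini-Hochberg adjusted p under 0.05. Y-linked reads disagreed with the sex label of the same number in 8 of 12 columns, so columns were tied to genotype only. DESeq2 with the same terms on all rows gave the deposited log2 fold changes within 9.2e-09, while the DESeq2 alternative was run on the filtered genes and its values differ slightly from the deposited ones. Fold changes on this scale understate those of weakly expressed genes. Counts of replicates were not within sampling noise of each other (chi-square of 7.05 to 169 per degree of freedom in 30 pairs). The sample titles call the 6 libraries of each genotype biological replicates (biorep), but no label names the animals. The p-values rest on the spread between these samples alone, part of which may be technical.

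The genes, gene lists, Y-set term and tests were chosen with earlier results of these data known. Named genes were the 8, Nsd1, in each complement list the 2 most abundant, the 2 of largest difference and every called gene, the 5 genes most like C4b and the C1q mean, the RefSeq neighbours of C4b and C4a, and called markers. C1ra, Masp1, Cfp, Cfb and Cfd, outside that rule, were named after their values were seen, as were Klk6 and the low markers Cd79a, Cd79b, Cd3e and Ly6d. Correlations used permutation within the 4 genotype-by-set groups, enumerated in full in place of the planned random resampling. Transcript lengths and sequences are from GENCODE vM21 on GRCm38 (98.2% of tested genes had a length), neighbours from RefSeq GRCm38. As the notes name another build, no coordinates are printed. The limma step was tested on simulated data. Alternatives were other pseudocounts, filters, TMM scaling, array weights, edgeR, DESeq2, no Y-set term, a replicate block, C4a and C4b summed, omitted libraries and, added after the data were seen, removal of a transcript length trend. Versions were R 4.3.3, limma 3.58.1, edgeR 4.0.16 and DESeq2 1.42.0.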

Additional observations from a re-analysis of the deposited data

Results flagged for a closer look

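Within 92 groups of 6 libraries, 4 held a library that stood apart from the other 5 of its group by Dixon's criterion, which chance gives for about 1 in 20 groups. The 92 include the groups of Cyp21a2-ps, Stk19-ps1, Tnxa and Cyp21a1, at 0 in every library, where no library can stand apart. Srpx2 had 30.8 normalised reads in cKO library 3, against 39.4 to 44.4 in the other 5 cKO libraries. Aqp4 had 2678 in control library 4, against 1818 to 2107 in the other 5 control libraries. Ehmt1 had 759.8 in cKO library 3, against 639 to 684 in the other 5 cKO libraries. Atf6b had 740.2 in cKO library 4, against 955 to 1073 in the other 5 cKO libraries. No library of C4b, C4a, the C1q chains, C3, C3ar1 or Serping1 was apart by this criterion.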

How the results depend on the processing

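C4b had a log2 difference of -0.70 to -0.51 in 13 alternatives and -0.73 to -0.56 over the 12 omissions of 1 library, below 0 in all 25. Its limma call ended without control libraries 4 and 5 (-0.51) and in 8 single omissions. Genes called lower numbered 10, and 5 with a minimum mean of 50, 20 with array weights, 26 with DESeq2, 6 without control libraries 4 and 5 and 8 to 13 over the omissions. Genes called higher numbered 110, and 53 with a minimum mean of 50 and 89 to 114 over the omissions. Complement genes called higher numbered 2, with 1 at a minimum mean of 50 (where Srpx2 was not tested) and 1 to 2 over the omissions. Those called lower numbered 1, with 0 without control libraries 4 and 5 and 0 to 1 over the omissions. Between the Y sets 11 genes were called, with 57 under array weights, 60 with DESeq2 and 9 to 19 over the omissions (19 without cKO library 3). The interaction had 0 calls, with 3 by DESeq2 and 0 to 7 over the omissions (7 without control library 6). The causes were not tested. Deviations of same-numbered libraries correlated at 0.20, 0.46 and 0.48 for numbers 1 to 3, each best with its own number, and at 0.05, -0.10 and 0.03 for numbers 4 to 6, not best with their own, so the numbers were not taken as pairs over all 6. With a replicate block for the column number, C4b had -0.65 (limma adjusted p = 0.0282) and no count moved by over 1.5 times. C3 and C4a, at 12 or fewer reads per library, are too shallow for a comparison.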
